A study of Mus musculus with 24 samples.

Results

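Ripk1, Ripk2, Ripk3, Mlkl and Zbp1 were followed across OGT knockout (KO) and wild-type (WT) mouse macrophages. They were taken by symbol from the count tables, 5 genes of 24421, and all 5 were among the 14693 genes that passed the filter on low counts. The cells were bone marrow-derived macrophages, cultured from C57BL/6J mice aged 12 weeks and profiled by RNA sequencing of total RNA. Each genotype was left unstimulated (M0), treated for 12 hours with LPS (100 ng/ml), the bacterial product that activates TLR4, or treated for 12 hours with IL-4 (10 ng/ml), with 4 libraries in each of the 6 groups. OGT is the enzyme that adds a single sugar, O-GlcNAc, to proteins of the nucleus and cytosol. The sources used here do not give how or in which cells the gene was deleted. Libraries are named by the number in their label code, 1 to 4 in WT and 5 to 8 in KO. Separate animals or cultures are not named for the libraries of a group, so the spread behind each p-value may be technical.

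Necroptosis is a lytic form of cell death run by kinases rather than caspases. RIPK1 carries signals from the TNF receptor, ZBP1 senses left-handed double-stranded nucleic acid, and both can engage RIPK3 through a shared interaction motif, as can the TLR adaptor TRIF. RIPK3 then phosphorylates MLKL, the pseudokinase that breaks the plasma membrane, while caspase-8 with cFLIP holds the pathway back by cutting RIPK1 and RIPK3. RIPK2 belongs to the same kinase family and has another task: it carries signals from the peptidoglycan sensors NOD1 and NOD2 to NF-kB. RIPK3 protein has been reported to carry the sugar that OGT adds, a modification that mRNA counts do not read.

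The 5 genes lie on 5 chromosomes (GRCm38, GENCODE M21 gene limits). Ripk1 spans chr13:34002363-34037147 on the plus strand. On the minus strand, Ripk2 spans chr4:16122733-16163647, Ripk3 chr14:55784995-55788865, Mlkl chr8:111311797-111338177 and Zbp1 chr2:173206612-173218923. Exons of Ripk1 share 241 bases with Serpinb6a on the opposite strand, a gene that is counted in the same files, and 511 bases with the pseudogene Gm17084, which is not among their symbols. As the sources used here do not give the strand setting of the counting, reads in those stretches cannot be told apart. No other member shared exon bases with a second annotated gene.

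Of the 5 genes, 3 matched a start-site window by symbol, and these are shown beside their LPS responses, a large rise for Mlkl and changes of less than 1.2-fold for Ripk1 and Ripk3. Each window holds 300 bases, from 250 before the annotated start to 50 after it, as given by RefSeq on GRCm38.p6, 5′ to 3′ on the gene's own strand. Capitals mark matches, on either strand, to GAAANNGAA, a short form of the interferon-stimulated response element, or TTCNNNGAA, the STAT element GAS. The windows are chr13:34002624-34002923 (plus strand) for the second of 2 annotated Ripk1 starts, chr14:55788808-55789107 (minus strand) for Ripk3 and chr8:111338156-111338455 (minus strand) for Mlkl.
Ripk1: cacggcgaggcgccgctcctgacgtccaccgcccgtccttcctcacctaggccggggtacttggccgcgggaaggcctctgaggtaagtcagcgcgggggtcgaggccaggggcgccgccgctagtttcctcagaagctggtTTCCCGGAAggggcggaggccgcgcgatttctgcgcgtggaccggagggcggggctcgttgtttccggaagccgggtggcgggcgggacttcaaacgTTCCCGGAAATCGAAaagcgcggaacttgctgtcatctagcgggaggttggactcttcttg
Ripk3: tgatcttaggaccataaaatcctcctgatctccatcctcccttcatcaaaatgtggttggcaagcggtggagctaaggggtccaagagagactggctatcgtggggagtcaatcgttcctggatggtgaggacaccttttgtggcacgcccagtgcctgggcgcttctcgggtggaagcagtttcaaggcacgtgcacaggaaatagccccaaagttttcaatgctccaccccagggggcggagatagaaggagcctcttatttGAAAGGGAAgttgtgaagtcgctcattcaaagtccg
Mlkl: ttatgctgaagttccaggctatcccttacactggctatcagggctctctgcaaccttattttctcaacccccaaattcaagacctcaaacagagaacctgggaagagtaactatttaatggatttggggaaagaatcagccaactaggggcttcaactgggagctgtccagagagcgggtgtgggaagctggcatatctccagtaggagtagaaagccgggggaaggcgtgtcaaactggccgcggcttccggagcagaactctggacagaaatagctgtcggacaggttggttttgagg
The Ripk1 window held TTCCCGGAA at positions 143 to 151 and 240 to 248, counted from 1 at its first base, and GAAATCGAA at positions 246 to 254, overlapping the second of these. The Ripk3 window held GAAAGGGAA at positions 265 to 273, and neither the Mlkl window nor that of the first Ripk1 start held either letter pattern. Among 32851 RefSeq windows of this length, 8.56% held GAAANNGAA and 8.3% held TTCNNNGAA. The matches describe letters only. RefSeq limits of the Mlkl gene, chr8:111311255-111338479, extend past its window at the 5′ end, so bases before that outer limit were not searched. Ripk2 and Zbp1 are named without a window.

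Libraries held 63429300 to 94942500 gene counts in 21 cases. WT LPS libraries 1 and 2 and KO LPS library 7 held 172771 to 209368, and in them 3 counts, the most that a count of 0 allows, equal 15.5 to 17.9 counts per 1e6 counts (CPM), against 0.0303 to 0.055 CPM in the deep libraries. The limits cover counting error only. Values of the 5 genes in the 3 shallow LPS libraries are given below with their counts. Ogt itself was counted over the whole gene, so no part of it was read alone. It spanned 47.3 to 52.4 CPM in WT and 34.5 to 36.9 CPM in KO at rest. After LPS it spanned 55.0 to 68.0 (highest from 13 counts) and 34.2 to 53.8 CPM (highest from 9 counts), and after IL-4 49.2 to 58.2 and 31.9 to 34.8 CPM. Ogt was thus lower in KO without overlap in each state (log2 fold changes -0.49, -0.63 and -0.71, adjusted p of at most 1.01e-06). KO libraries 5 and 6 stood apart from 7 and 8 over all genes. In M0 the chi-square per degree of freedom between libraries was 9.09 within the first pair and 8.51 within the second, against 47.0 to 63.8 across them. It was 15.7 and 28.0 against 49.1 to 74.8 after IL-4, and after LPS 7.65 between 5 and 6 against 68.8 to 80.8 with 8. The labels do not say what the numbers stand for.

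Cell type markers also differed between genotypes, with sums given over the 21 deep libraries. The summed level of 8 macrophage markers, with calls in KO of 3 downward at rest, 3 upward and 4 downward after LPS, and 1 each way after IL-4, was 12606 to 14086 CPM in WT M0 and 7778 to 9799 CPM in KO M0, 14705 to 14873 against 8962 to 9756 CPM in LPS, and 7845 to 8304 against 6853 to 7388 CPM in IL-4. Lyz2 was the largest part of that sum, with means of 9307 CPM in WT and 5086 CPM in KO in M0, and 8208 and 3759 CPM in LPS. In M0 the means of Cd68, Fcgr1 and Mertk were higher in KO, and those of Adgre1, Csf1r, Itgam and Mrc1 lower. For 8 stromal markers the sum was 10318 to 12016 CPM in WT M0 and 14752 to 19244 CPM in KO M0, 13915 to 14204 against 18708 to 18811 CPM in LPS, and 7340 to 7894 against 10797 to 14098 CPM in IL-4, with 6, 6 and 7 of the 8 genes called higher in KO and none at 0. Col1a1, Col1a2 and Col3a1 made up most of it, with means of 5342, 3759 and 1443 CPM in WT M0. In that group Cxcl12 stood at 627, Pdgfrb at 151, Pdgfra at 46.3, Dcn at 2.27 and Lum at 0.195 CPM. Of 8 endothelial markers, 5, 2 and 3 were called higher in KO, with none at 0. Their sums were 16.7 to 21.7 CPM in WT M0 and 26.4 to 85.0 CPM in KO M0, 48.6 to 50.5 against 87.8 to 116 CPM in LPS, and 21.1 to 25.1 against 20.1 to 49.0 CPM in IL-4. Neutrophil (10.3 to 63 CPM), B cell (17.1 to 36.1), dendritic cell (2.04 to 5.03), mast cell and basophil (5.45 to 25.3), T and NK cell (0 to 0.277) and erythroid (0 to 0.395) markers had low sums. The part of these differences in the results below was not tested, and in bulk RNA fewer cells of a type cannot be told apart from less RNA per cell.

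KO macrophages held less Ripk2, Ripk3 and Zbp1 mRNA than WT at rest, less Ripk2 and Ripk3 after IL-4, and more Ripk2 and Mlkl after LPS. Ripk1 did not pass the test between genotypes in any state. Genes were called at an adjusted p under 0.05 in edgeR's quasi-likelihood test, adjusted by Benjamini-Hochberg over all 14693 genes, and fold changes are on the log2 scale with standard errors (SE). In M0, 3 of the 5 genes were lower and 0 higher in KO, where 22.3% of all genes were called (11.8% higher, 10.5% lower). After LPS, 2 of 5 were higher and 0 lower, where 30.9% of all genes were called (16.2% higher, 14.6% lower), and in IL-4 2 of 5 were lower, where 36.1% were called (17.9% higher, 18.2% lower). KO and WT libraries did not overlap for 3 members in M0, 2 in LPS and 2 in IL-4, against 27.1%, 12.9% and 37.1% of all genes. Among the deep LPS libraries alone, 2 of WT and 3 of KO, the genotypes did not overlap for any of the 5, as for 54.7% of all genes.

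**Figure D1:**
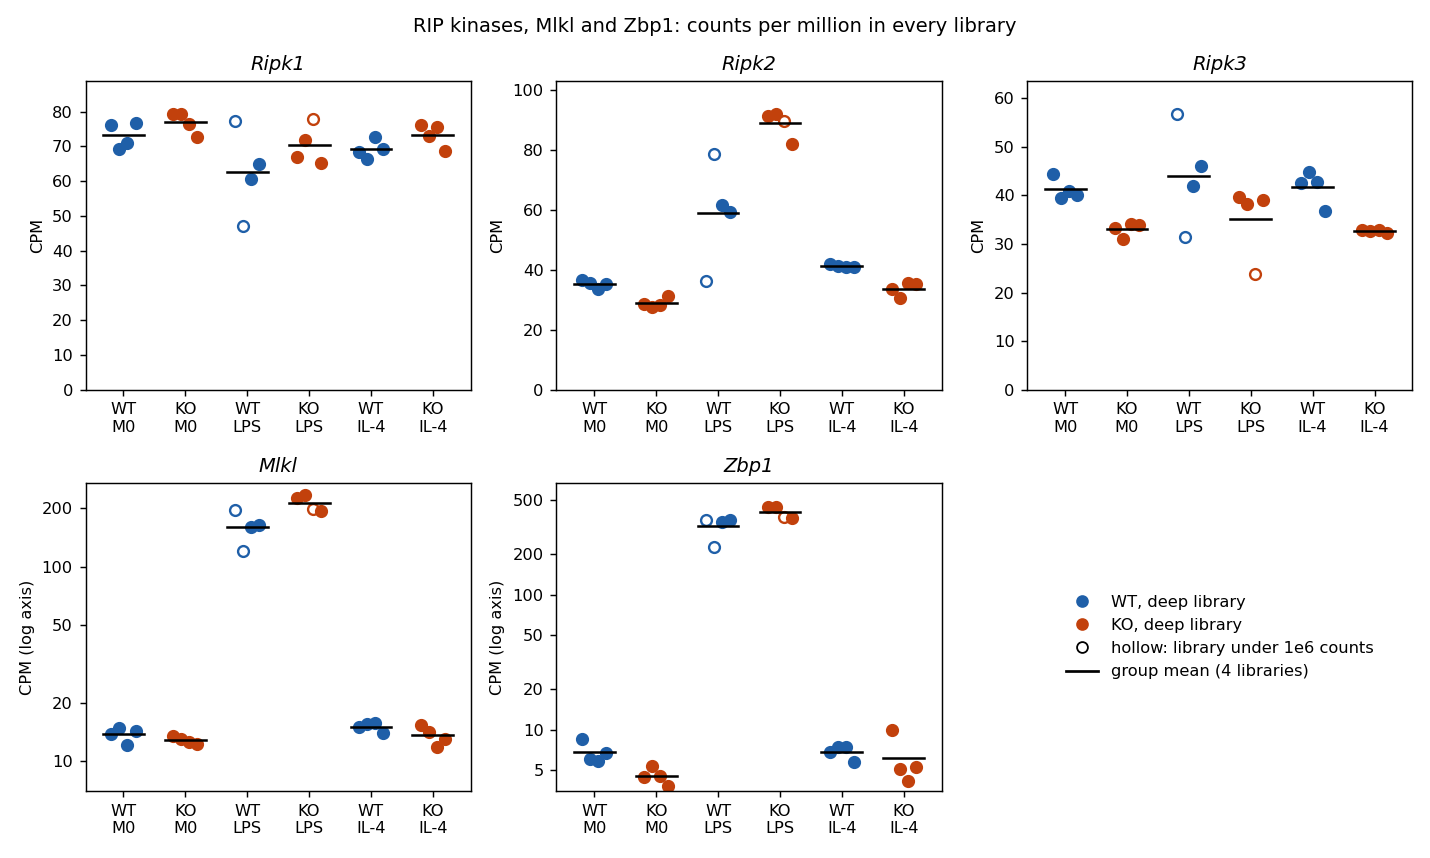
CPM of the 5 genes in each of the 24 libraries, by group, with points for libraries (hollow for the 3 shallow ones) and bars for group means; Mlkl and Zbp1 are on log axes. Mlkl and Zbp1 stand far higher in every LPS library than in any M0 or IL-4 library, and Ripk3 stays between 23.9 and 56.7 CPM throughout.

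Ripk3, the kinase that phosphorylates MLKL, was lower in KO than in WT at rest and after IL-4. In M0 it stood at 44.5, 39.5, 40.9 and 40.1 CPM in WT libraries 1 to 4 and at 33.2, 31.1, 34.0 and 34.0 CPM in KO libraries 5 to 8. Every KO value lay under every WT value, and the log2 fold change was -0.32 ± 0.060 (adjusted p = 0.000416). After IL-4 it stood at 42.6, 44.8, 42.8 and 36.9 CPM in WT and at 32.9, 32.7, 32.9 and 32.3 CPM in KO. Again no values overlapped (-0.35 ± 0.060, adjusted p = 7.16e-05), and the KO libraries spanned less than 1 CPM.

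After LPS, Ripk3 stood at 56.7 (11 counts), 31.4 (6 counts), 42 and 46.1 CPM in WT and at 39.7, 38.2, 23.9 (4 counts) and 39.1 CPM in KO. The shallow libraries hold the highest and lowest values of the state, and the groups overlap through WT library 2, whereas the deep libraries do not overlap. The difference was -0.18 ± 0.076 and did not pass (adjusted p = 0.0707, 95% interval -0.34 to -0.03). In WT its LPS response was 0.10 ± 0.072 (adjusted p = 0.27) and turned to -0.003 with RLE scaling. In KO it was 0.23 ± 0.065 (adjusted p = 0.00284), a call that ended with RLE scaling (0.14, 0.0524), in DESeq2 (0.14, 0.156), with the LPS and M0 KO groups fitted alone (0.06, 0.421), without KO numbers 5 and 6 (0.24, 0.0591) and without any 1 of the KO M0 libraries (0.04 to 0.08). TMM scales each library to a reference library, and leaving out any M0 or IL-4 library makes shallow KO LPS library 7 that reference. With the reference of all 24 libraries kept, a setting chosen after seeing the data, the values without 1 KO M0 library were 0.20 to 0.24 and passed (adjusted p of at most 0.0145). The IL-4 responses were 0.02 ± 0.060 in WT and -0.02 ± 0.060 in KO (adjusted p = 0.808 and 0.847).

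Mlkl, the executioner of the pathway, was scarce at rest and was strongly induced by LPS in both genotypes. It stood at 13.8, 14.8, 12.1 and 14.3 CPM in WT M0 and at 13.6, 13, 12.6 and 12.2 CPM in KO M0, overlapping ranges whose difference did not pass (-0.10 ± 0.079, adjusted p = 0.404, 95% interval -0.26 to 0.07). LPS brought it to 196 (38 counts), 120 (23 counts), 160 and 164 CPM in WT and to 226, 232, 197 (33 counts) and 193 CPM in KO. All LPS libraries lay above all others of the same genotype. The rise was 3.56 ± 0.089 in WT (11.8-fold, adjusted p = 1.51e-21) and 4.07 ± 0.087 in KO (16.8-fold, adjusted p = 2.96e-23).

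The Mlkl rise was larger in KO by 0.52 ± 0.12 (interaction, adjusted p = 0.00565). In LPS the KO libraries therefore held more Mlkl mRNA (0.42 ± 0.091, adjusted p = 0.000976), with overlap only through shallow WT library 1. KO numbers 5 and 6 stood higher than 7 and 8, at a mean of 229 against 195 CPM. Without numbers 5 and 6 the difference was 0.27 (adjusted p = 0.037), and without 7 and 8 it was 0.51. IL-4 left Mlkl at 15.0, 15.6, 15.8 and 14.0 CPM in WT and 15.3, 14.2, 11.8 and 13 CPM in KO. Neither the response (0.14 ± 0.079 in WT, 0.08 ± 0.079 in KO, adjusted p = 0.144 and 0.401) nor the genotype difference (-0.15 ± 0.079, adjusted p = 0.143) passed. The genotype difference passed without KO IL-4 library 5 (-0.22, adjusted p = 0.0291) and without KO numbers 5 and 6 (-0.29, 0.00591), and was -0.03 without 7 and 8.

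Zbp1, the nucleic acid sensor that recruits RIPK3, made the largest response of the 5. At rest it stood at 8.51, 6.13, 5.91 and 6.73 CPM in WT and at 4.44, 5.37, 4.53 and 3.82 CPM in KO. All KO values were under all WT values (-0.58 ± 0.18, adjusted p = 0.0229). The call ended in DESeq2 (-0.58, 0.0645), without WT M0 library 1 (-0.47, 0.0833), without KO M0 library 8 (-0.53, 0.0671) and without KO numbers 7 and 8 (-0.48, 0.0556). With the TMM reference kept it also ended without KO M0 library 7 (-0.58, 0.0504). After LPS it reached 356 (69 counts), 225 (43 counts), 347 and 357 CPM in WT and 445, 447, 377 (63 counts) and 371 CPM in KO. The lowest LPS value lay far above the highest M0 value of each genotype, and the rise was 5.63 ± 0.20 in WT (49.7-fold, adjusted p = 1.77e-18) and 6.52 ± 0.21 in KO (91.6-fold, adjusted p = 7.56e-20).

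The Zbp1 response was larger in KO by 0.88 ± 0.26 (interaction, adjusted p = 0.0269). KO libraries lay under all WT libraries before LPS and above them all after it. The difference after LPS did not itself pass (0.30 ± 0.18, adjusted p = 0.227, 95% interval -0.08 to 0.68) and passed without KO numbers 7 and 8 (0.38, 0.0458). The interaction no longer passed without the 3 shallow libraries (0.87, 0.0537), without WT M0 library 1 (0.72, 0.0747) or without KO M0 library 8 (0.77, 0.0634). With the TMM reference kept it also did not pass without WT LPS library 3 or 4 or KO LPS library 5 or 6 (0.84 to 0.93, adjusted p = 0.0512 to 0.0629). After IL-4 Zbp1 stood at 6.85, 7.43, 7.46 and 5.79 CPM in WT and at 10.0, 5.17, 4.17 and 5.27 CPM in KO. KO library 5 lies above every WT library and the other 3 below, and the genotype difference was -0.16 ± 0.18 (adjusted p = 0.528). The IL-4 response was 0.01 ± 0.18 in WT (adjusted p = 0.951). In KO it was 0.44 ± 0.18 (adjusted p = 0.0464), a call that ended in 11 of 16 alternatives, among them RLE scaling (0.38, 0.0821), DESeq2 (0.38, 0.183), the fit without shallow libraries (0.44, 0.0669), that of the compared groups alone (0.43, 0.167), and those without KO M0 library 5, 7 or 8 (0.32 to 0.39) or KO IL-4 library 6 or 8 (0.47 and 0.46). Without KO IL-4 library 5 the response was 0.04 (0.836) and without KO numbers 5 and 6 it was 0.18 (0.415). The genotype difference was then -0.52 (0.00358) and -0.56 (0.00181).

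**Figure D2:**
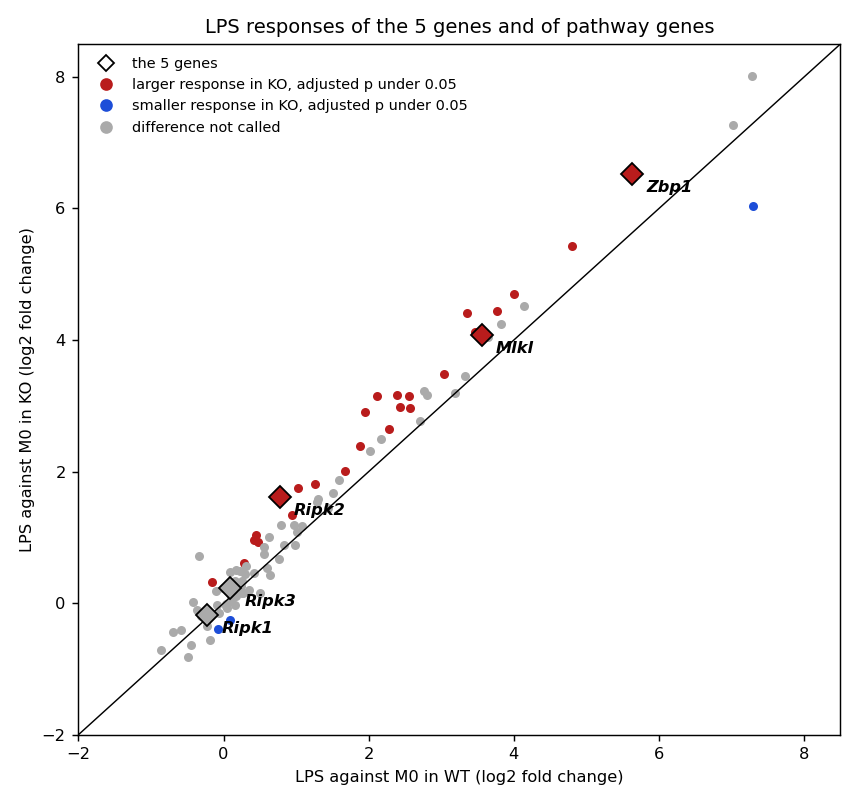
LPS response (log2 fold change of LPS against M0) in KO on the vertical axis against that in WT on the horizontal axis, for the 5 genes (diamonds) and the tested pathway genes (circles), with the diagonal marking equal responses and color marking a called interaction. Ripk2, Mlkl and Zbp1 lie above the diagonal by 0.84, 0.52 and 0.88, and Ripk1 and Ripk3 lie near it.

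Ripk1, the adaptor kinase of the TNF receptor, had the smallest genotype difference of the 5 in each state. It stood at 76.3, 69.1, 71 and 76.7 CPM in WT M0 and at 79.2, 79.3, 76.4 and 72.8 CPM in KO M0 (0.07 ± 0.053, adjusted p = 0.368, 95% interval -0.04 to 0.18). After IL-4 the values were 68.2, 66.4, 72.6 and 69.4 CPM in WT and 76.1, 73, 75.6 and 68.7 CPM in KO (0.08 ± 0.053, adjusted p = 0.223). The ranges overlap in both states. After LPS Ripk1 stood at 77.4 (15 counts), 47.1 (9 counts), 60.6 and 65.1 CPM in WT and at 67.0, 71.8, 77.7 (13 counts) and 65.2 CPM in KO (0.12 ± 0.068, adjusted p = 0.195, 95% interval -0.02 to 0.26).

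LPS lowered Ripk1 in both genotypes, by -0.22 ± 0.065 in WT (adjusted p = 0.00469) and -0.17 ± 0.058 in KO (adjusted p = 0.00988). In the deep libraries every LPS value lay under every M0 value of its genotype. The WT call ended without WT LPS library 3 (-0.18, 0.0827). The KO call ended without KO numbers 5 and 6 (-0.13, 0.222) and without KO LPS library 5 (-0.12, 0.122) or 8 (-0.10, 0.159), where it passed with the TMM reference kept (-0.16, 0.0368, and -0.15, 0.0469). The responses did not differ between genotypes beyond their error (0.05 ± 0.086, adjusted p = 0.781). IL-4 responses were -0.08 ± 0.053 in WT and -0.07 ± 0.053 in KO (adjusted p = 0.183 and 0.295). With RLE scaling they were -0.15 and -0.13 and passed (0.0214 and 0.0498). The WT response also passed without WT M0 library 2 (-0.17, 0.0124) or 3 (-0.16, 0.0221) or WT IL-4 library 3 (-0.16, 0.0204) or 4 (-0.14, 0.0483), and the KO response without KO M0 library 8 (-0.15, 0.0379). With the TMM reference kept none of these responses without 1 library passed (adjusted p of at least 0.0990 in WT and 0.181 in KO).

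Ripk2, the NOD1 and NOD2 kinase, was lower in KO at rest and after IL-4 and higher in KO after LPS. In M0 it stood at 36.5, 35.5, 33.6 and 35.2 CPM in WT and at 28.5, 27.6, 28.3 and 31.3 CPM in KO, without overlap (-0.28 ± 0.059, adjusted p = 0.00106). After IL-4 the values were 41.8, 41.1, 40.9 and 41.1 CPM in WT and 33.7, 30.6, 35.4 and 35.1 CPM in KO, again without overlap (-0.29 ± 0.058, adjusted p = 0.000431). LPS turned the order around. Ripk2 stood at 36.1 (7 counts), 78.5 (15 counts), 61.5 and 59.2 CPM in WT and at 91.4, 91.9, 89.7 (15 counts) and 82.1 CPM in KO, so every KO value lay above every WT value (0.56 ± 0.074, adjusted p = 3.42e-06).

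The LPS response of Ripk2 was 0.77 ± 0.069 in WT (1.71-fold, adjusted p = 2.64e-10) and 1.61 ± 0.062 in KO (3.06-fold, adjusted p = 4.97e-18). The difference between these responses was 0.84 ± 0.094 (adjusted p = 3.81e-06), the smallest p of the 5 interactions. IL-4 raised Ripk2 by 0.23 ± 0.058 in WT (adjusted p = 0.00152) and 0.22 ± 0.059 in KO (adjusted p = 0.00264). These IL-4 calls ended without WT M0 library 3 (0.14, 0.0522) and without KO M0 library 6 or KO IL-4 library 7 (0.15 each, 0.0523 and 0.0536), and passed in all 3 cases with the TMM reference kept (0.20 to 0.21, adjusted p of at most 0.0133).

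**Figure D3:**
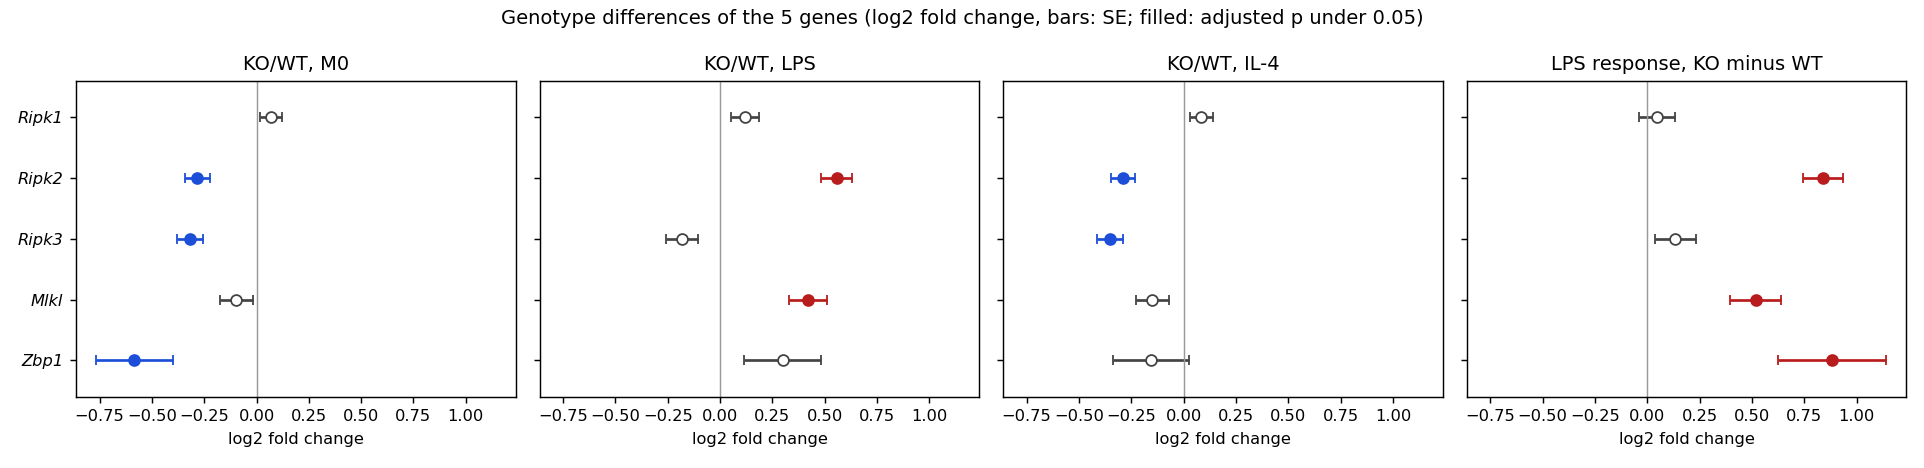
Log2 fold change of KO against WT for the 5 genes in M0, LPS and IL-4, and the LPS response of KO minus that of WT; bars are SE, filled points have an adjusted p under 0.05, and all panels share an axis. Ripk2 lies below 0 in M0 and IL-4 and above 0 in LPS, and Ripk3 lies below 0 in all 3 states.

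LPS changed 4 of the 5 genes in WT (3 higher, 1 lower), where 57.7% of all genes were called (29.4% higher, 28.3% lower). In KO it changed 5 of 5 (4 higher, 1 lower), where 67.3% were called (31.2% higher, 36.0% lower). LPS and M0 libraries did not overlap for 2 members in WT and 3 in KO, against 38.9% and 47.7% of all genes. IL-4 changed 1 of 5 in WT, where 60.1% were called (30.9% higher, 29.3% lower), and 2 of 5 in KO, where 51.3% were called (26.0% higher, 25.2% lower), all upward. IL-4 and M0 libraries did not overlap for 1 member in WT and 0 in KO, against 57.5% and 46.8% of all genes. The LPS response differed between genotypes for 3 of 5, all larger in KO, where 11.4% of all genes were called (6.62% higher, 4.79% lower). The IL-4 response differed for 0 of 5, where 1.14% were called (0.470% higher, 0.667% lower). For the latter edgeR gave an unadjusted p of at least 0.108 for each of the 5. Comparisons of LPS and of IL-4 within a genotype share the M0 libraries, and each interaction shares its libraries with the comparisons it joins.

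Levels of different genes can be set side by side only per length. The length used joins the exons of all annotated transcripts, 8344 bases for Ripk1 and 2292 to 3529 for the other genes. Ripk1, the highest of these genes in WT M0 by CPM alone (73.3), owes its place in the orders below to that length. Per kilobase of annotated exon, WT M0 macrophages held 18.0 CPM of Ripk3, 12.5 of Ripk2, 8.78 of Ripk1, 5.97 of Mlkl and 1.93 of Zbp1, so the kinase stood above both its sensor and its target. In WT LPS the order was Zbp1 at 91, Mlkl at 69.5, Ripk2 at 20.9, Ripk3 at 19.2 and Ripk1 at 7.49 CPM per kilobase. KO LPS held 116 of Zbp1, 92.2 of Mlkl and 31.5 of Ripk2. Ordering the groups for each gene by mean, Ripk2 and Zbp1 were highest in KO LPS, clear of WT LPS. Mlkl was also highest in KO LPS, but its range overlapped that of WT LPS through a shallow library. The 3 WT groups held the 3 highest means of Ripk3, at 44.1, 41.8 and 41.2 CPM, and neighbours in that order overlapped throughout, as they did for Ripk1. In the deep libraries alone Ripk3 in KO LPS lay clear above KO M0, and Ripk1 in WT LPS clear below WT IL-4.

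Of 97 genes in 7 lists around these kinases, 94 were tested. In M0, 6 were higher and 26 lower in KO. LPS gave 26 higher and 9 lower, and IL-4 gave 11 and 19. Of all tested genes 22.3%, 30.9% and 36.1% were called in the 3 states. The median log2 fold change of the lists was -0.09 in M0, 0.15 in LPS and -0.04 in IL-4, against 0.02, 0.01 and 0.01 over all tested genes. LPS itself raised 63 and lowered 11 in WT and raised 66 and lowered 10 in KO, where 57.7% and 67.3% of all genes were called. Its effect was larger in KO for 23 genes and smaller for 3, against 6.62% and 4.79% of all genes. With a replicate block 47 were called, where calls over all 14693 genes went from 1676 to 2984. The count for KO against WT in M0 was 17 in DESeq2, and that for LPS was 58 without KO numbers 7 and 8 and 23 without WT LPS library 3. Calls over all genes moved as well. They were 1441 of 12699 genes in that DESeq2 fit, against 3279 of 14693 in the main fit. In LPS they were 5634 of 14925 and 3029 of 14862, against 4534 of 14693.

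**Figure D4:**
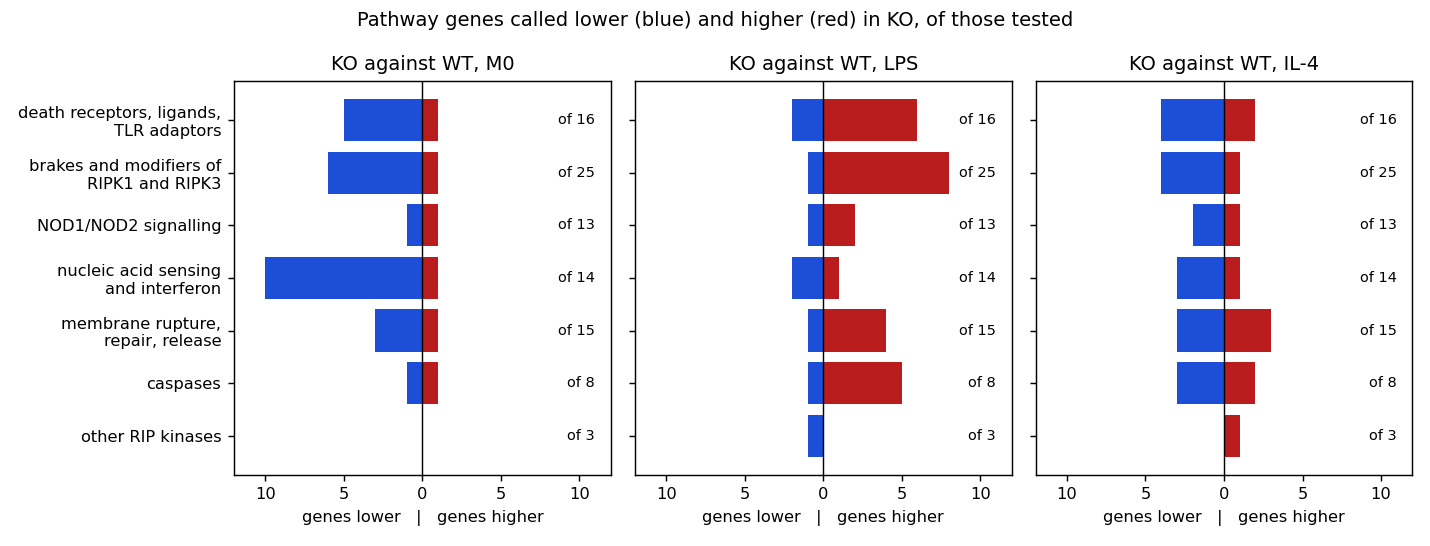
Number of genes called higher (red, right) and lower (blue, left) in KO in each of the 7 lists, in M0, LPS and IL-4, with the number tested beside each bar. Lower calls are most frequent among the nucleic acid sensing genes in M0 (10 of 14, beside 10.5% of all genes), and higher calls among the caspases in LPS (5 of 8, beside 16.2%).

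Upstream of RIPK1 and RIPK3, 16 of 17 receptor, ligand and adaptor genes were tested. Of all genes 22.3% were called in M0, 30.9% in LPS and 36.1% in IL-4. In M0, 1 was higher and 5 lower in KO: Tnfrsf1b, the second TNF receptor, rose (0.32 ± 0.092, adjusted p = 0.0122), and Tnf (-0.47 ± 0.12, 0.00633) and the death domain adaptor gene Fadd (-0.35 ± 0.084, 0.00392) fell. In LPS 6 were higher and 2 lower. Fas, a death receptor, rose most (1.03 ± 0.11, 1.47e-07), Ticam1, which encodes TRIF, rose by 0.47 ± 0.098 (0.000606), and Fadd fell again (-0.48 ± 0.11, 0.00142). In LPS Ticam1 spanned 20.6 to 52.3 CPM in WT and 12.0 to 54.7 CPM in KO, and Fadd stood at 0 CPM in the shallow KO library. Ticam1, and Casp8, Birc3, Sharpin, Nod1, Card9, Mavs, Casp2 and Dstyk below, overlapped in LPS only through shallow libraries. In the deep ones 54.7% of all genes did not overlap. Tnf did not differ beyond its error after LPS (0.16 ± 0.13, 0.379). In IL-4 2 were higher and 4 lower, with Ticam1 at 0.27 ± 0.077 (0.00836) and Fadd at -0.42 ± 0.083 (0.000371). LPS induced Tnfsf10, the ligand TRAIL, 130-fold in WT and 154-fold in KO, and the response was larger in KO for Fas (0.96 ± 0.14) and the double-stranded RNA receptor gene Tlr3 (0.67 ± 0.17, 0.0124).

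Of 25 brakes and modifiers of RIPK1 and RIPK3, 6 were lower and 1 higher in KO at rest, beside 10.5% and 11.8% of all genes. The deubiquitinase gene Cyld fell (-0.36 ± 0.065, adjusted p = 0.000297), Cflar, which encodes cFLIP, fell (-0.31 ± 0.063, 0.000885), and Otulin, a deubiquitinase of linear chains, rose (0.18 ± 0.052, 0.0128). In LPS 8 were higher and 1 lower, beside 16.2% and 14.6% of all genes. Casp8 (0.25 ± 0.065, 0.00395), Cflar (0.28 ± 0.072, 0.00399), the ubiquitin ligase gene Birc3 (0.30 ± 0.081, 0.0057) and Peli1 (0.44 ± 0.071, 4.52e-05) rose, and Sharpin, a part of the linear ubiquitin ligase, fell (-0.47 ± 0.092, 0.000377). Tnfaip3, which encodes A20, was at 0.33 ± 0.13 (0.0537). In IL-4 1 was higher and 4 lower, beside 17.9% and 18.2% of all genes. Among the 94 genes Cflar alone was called for the IL-4 interaction with all libraries (0.45 ± 0.089, 0.0122), where a replicate block called 10 and the fit without KO numbers 5 and 6 called 5, and its LPS interaction was 0.59 ± 0.096 (0.000224). Over all genes the IL-4 interaction gave 167 calls, 1105 with the block and 677 without KO numbers 5 and 6.

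Around RIPK2, 13 genes of NOD signalling were tested. In M0, 1 gene was higher and 1 lower in KO, after LPS 2 and 1, and after IL-4 1 and 2, beside 22.3%, 30.9% and 36.1% of all genes called. Nod1 was higher in KO LPS (0.37 ± 0.12, adjusted p = 0.0195) and Card9, an adaptor, lower (-0.53 ± 0.11, 0.000722). Nod2, which LPS raised by 3.64 ± 0.15 in WT and 4.05 ± 0.15 in KO, did not differ between genotypes beyond its error in LPS (0.11 ± 0.15, 0.641). The only LPS interaction of the list was that of Tab1 (-0.34 ± 0.092, 0.0165), where 11.4% of all genes were called.

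Around ZBP1, 14 nucleic acid sensing and interferon signalling genes were mostly lower in KO at rest: 10 were lower and 1 higher, beside 10.5% and 11.8% of all genes, with a median of -0.33. Irf1, a transcription factor of interferon responses, fell (-0.46 ± 0.089, adjusted p = 0.000554), as did Mavs, the adaptor of the RNA sensors (-0.32 ± 0.070, 0.0016), and Mb21d1, which encodes cGAS, rose (0.27 ± 0.098, 0.0498). In LPS 1 was higher and 2 lower, beside 16.2% and 14.6% of all genes: Irf1 rose (0.57 ± 0.10, 0.000176), and Irf3 (-0.43 ± 0.067, 2.5e-05) and Mavs (-0.38 ± 0.089, 0.00186) fell. LPS raised 12 of the 14 in each genotype, beside 29.4% of all genes in WT and 31.2% in KO, and Irf1 responded more in KO (1.03 ± 0.14, 2.61e-05), passing, like Ripk2, from under WT to above it. In IL-4 1 was higher and 3 lower, beside 17.9% and 18.2% of all genes.

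Downstream of MLKL, 15 genes of membrane rupture, repair and release gave 1 higher and 3 lower in M0, 4 and 1 in LPS, and 3 and 3 in IL-4. Of all genes 22.3%, 30.9% and 36.1% were called in these states. The channel gene Panx1 rose in KO LPS (0.59 ± 0.095, adjusted p = 4.18e-05), as did Pgam5 (0.27 ± 0.094, 0.0318). Gsdmd, the pore former of pyroptosis, was lower in KO M0 (-0.25 ± 0.076, 0.0173). Its value in KO LPS was 0.11 ± 0.090 (0.363). The LPS response was larger in KO for 3 of the 15 and smaller for 1, the alarmin gene Il1a (-1.27 ± 0.30, 0.00565), beside 6.62% and 4.79% of all genes. Among 8 caspases, 5 were higher and 1 lower in KO LPS, beside 16.2% and 14.6% of all genes, with a median of 0.60. Casp4, the sensor of cytosolic LPS, rose by 1.20 ± 0.088 (3.92e-10), and Casp2 fell (-0.36 ± 0.099, 0.00752). At rest the caspases gave 1 higher and 1 lower, beside 11.8% and 10.5% of all genes. Of the other family kinases, 3 of 5 were tested, and Dstyk was lower in KO LPS (-0.46 ± 0.095, 0.000589).

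Genes with the most similar pattern to each member were taken by the root mean square difference of centred log2 CPM over the 21 deep libraries. For Mlkl these were Ifi35 (0.14), Pnp (0.16) and Tlr3 (0.17), with Mlkl itself spanning 4.29. For Zbp1 they were Phf11d (0.29), Oas1g (0.32) and Gm12250 (0.33), over a span of 6.86. Txnrd1 (0.10), Inpp5b (0.11) and Plekha2 (0.13) came nearest to Ripk2, whose span was 1.73. The nearest to Ripk3 were Ift52 (0.09), Zbtb9 (0.10) and Tomm34 (0.10), and to Ripk1 Pum2 (0.05), Myo1c (0.06) and Ubap2l (0.06), over spans of 0.57 and 0.39.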

How the data were processed

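RNA sequencing counts of 24 libraries in 6 groups of 4 were used. The deposited values are raw read counts per gene symbol, made by the authors with TopHat2 2.1.0 and HTSeq 0.9.1 on mm10 (GRCm38), per the submitters' processing notes. No source used here names the annotation, kit or strand setting. The 5 summary lines per library (8.76 to 9.98% of reads) were left out of totals. The fit used edgeR 4.0.16 in R 4.3.3 (TMM, filterByExpr by group, quasi-likelihood test, all 24 libraries in 1 fit with 18 residual degrees of freedom), adjusted by Benjamini-Hochberg over 14693 genes. CPM use effective library sizes, and the log2 CPM behind the pattern distances a prior count of 2. The procedure was checked on simulated counts. Of 1.5-fold changes it recovered 86.6% for KO against WT in M0, 67.2% for KO against WT in LPS and 62.7% for LPS against M0 in WT. False calls were 10 of 189, 10 of 171 and 9 of 159. The simulated libraries were drawn independently around the mean WT M0 profile, with 66 or 67 genes changed at each fold size. They held no split between KO numbers and no change under 1.5-fold, such as those of Ripk2 and Ripk3 in M0. The rates therefore do not give the error of the real calls.

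The 5 genes and the lists were chosen with earlier results of these data known. Named genes are the 5, Ogt, 9 set pathway genes, and up to 2 called genes per list, direction and contrast with the smallest adjusted p and at least 5 CPM in the higher group. Marker lists covered macrophages and 8 other cell types. Alternatives were RLE scaling, DESeq2 1.42.0, no filter, only the groups compared, libraries over 1e6 counts, leaving out each library or KO number pair, a replicate block and, added after seeing the data, leaving out each library with the TMM reference kept. The main fit did not pair libraries by label number, and the replicate block covered all states. Deviations of same-numbered KO M0 and KO IL-4 libraries correlated at 0.312 to 0.406 over 4 pairs. The best correlation with another number was 0.325 to 0.382. Start-site windows are from RefSeq (GRCm38.p6).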

Additional observations from a re-analysis of the deposited data

Results flagged for a closer look

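In 30 sets of 4 libraries (5 genes in 6 groups), 2 held a library far from the other 3, where chance flags about 1 in 20. Ripk3 in KO LPS library 7 was lowest at 23.9 CPM (4 counts), under 38.2 CPM in the nearest and 39.7 CPM in the highest. Zbp1 in WT LPS library 2 was lowest at 225 CPM (43 counts), under 347 CPM in the nearest. Both are shallow libraries.

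The LPS response differed between genotypes, by the interaction test, for Ripk2 (0.84), Mlkl (0.52) and Zbp1 (0.88), each larger in KO. Leaving aside the fits with the TMM reference kept, Ripk2 and Mlkl passed in all 24 alternatives and Zbp1 in 21. Zbp1 did not pass without the 3 shallow libraries (adjusted p = 0.0537), WT M0 library 1 (0.0747) or KO M0 library 8 (0.0634).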

How the results depend on the processing

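The 5 genes in 9 contrasts gave 45 log2 fold changes, of which 22 were called. None of the 359 alternative values of those 22 changed sign, 33 of them no longer passed, and 14 of the 22 passed throughout. Without the filter on low counts all 45 kept their direction and call. RLE scaling moved the median gene by -0.0999 for LPS in WT and by at most 0.0213 in KO against WT. In DESeq2 74.9% of all LPS interaction calls were higher, against 58.0%. With the TMM reference kept, an alternative chosen after seeing the data, none of 197 values of called results changed sign and 14 no longer passed, 13 of them of Zbp1. Depth limits the LPS values, since 3 of those 8 libraries are shallow.

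Every change of sign was among values not called. With RLE scaling and in DESeq2 these were Ripk3 for LPS in WT (-0.00328 and -0.00323), and for IL-4 in WT Ripk3 (-0.0459 and -0.0459) and Zbp1 (-0.0499 and -0.0517, and -0.00273 without the shallow libraries). Without KO numbers 5 and 6 they were Ripk1 in KO against WT M0 (-0.00488) and the Ripk2 IL-4 interaction (0.0387, also 0.00759 without the shallow libraries and 0.0178 with only the groups compared). Without numbers 7 and 8 they were Zbp1 in KO against WT IL-4 (0.163), Ripk3 for IL-4 in KO (0.0257) and the IL-4 interactions of Ripk3 (0.0221) and Mlkl (0.0292). Leaving out each library in turn, with and without the TMM reference kept, gave -0.0584 to 0.159 for Ripk3 and LPS in WT, -0.0779 to 0.0736 for Ripk3 and -0.114 to 0.139 for Zbp1 with IL-4 in WT, -0.0342 to 0.144 for Mlkl with IL-4 in KO, and -0.0152 to 0.125 for the Ripk1 LPS interaction. The IL-4 interactions ranged from -0.0115 to 0.0543 (Ripk1), -0.0310 to 0.0463 (Ripk2), -0.0893 to 0.0116 (Ripk3) and -0.118 to 0.0173 (Mlkl).

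Counts of the 5 genes called were 4 in KO against WT IL-4 without KO numbers 5 and 6 (2 with all), 3 for LPS in KO without them (5 with all), 2 for IL-4 in WT with RLE scaling (1), and 1 for IL-4 in KO (2) in DESeq2, without the shallow libraries, without KO numbers 5 and 6 and with only the groups compared. Over all genes the calls in that order were 6156 of 14889 (5307 of 14693 with all), 8261 of 14889 (9885) and 8944 of 14693 (8836). For IL-4 in KO (7534) they were 4874 of 14692, 7808 of 15101, 5953 of 14889 and 7332 of 14269. Leaving out each library gave 2 to 4 for KO against WT IL-4, 1 to 2 for IL-4 in WT and 1 to 2 for IL-4 in KO. Counts of the 94 pathway genes were 17 in M0 (32) and 16 in IL-4 (30) in DESeq2, 48 in IL-4 without KO numbers 5 and 6, 58 in LPS (35) and 41 for the LPS interaction (26) without 7 and 8, and 23 to 44 in LPS over single libraries left out. All genes called in DESeq2 were 1441 of 12699 in M0 (3279 of 14693) and 2806 of 12982 in IL-4 (5307). Without KO numbers 5 and 6 there were 6156 of 14889 in IL-4. Without 7 and 8 there were 5634 of 14925 in LPS (4534) and 2349 for the LPS interaction (1676). For the IL-4 interaction (1) the pathway counts were 2 without the shallow libraries, 5 without KO numbers 5 and 6, 0 without 7 and 8, 2 with only the groups compared and 1 to 2 over single libraries left out. Over all genes (167) these fits called 259, 677, 105 and 300 in that order, single libraries aside. The causes were not tested.

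States of a genotype share label numbers. Deviations of same-numbered deep libraries correlated at 0.312 to 0.406 in all 4 KO pairs of M0 and IL-4, and above 0.1 in 2 of the other 6 KO pairs and 1 of 8 WT pairs. In the KO pairs of M0 and IL-4 the best correlation with another number was 0.325 to 0.382, so the range does not set the same number apart. No fit paired those libraries alone. A library correlated best with its own number in 7 of the 10 and 4 of the 8. With a replicate block all 30 member values kept direction and call, and the pathway counts were 47 for the LPS interaction and 10 for the IL-4 interaction. Over all genes the block called 2984 (1676 without it) and 1105 (167).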

Other observations

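Within KO LPS, Zbp1 stood at a mean of 446 CPM in libraries 5 and 6 and 374 CPM in 7 and 8. In M0 the means were 4.91 and 4.18 CPM, with library 5 (4.44) under library 7 (4.53). After IL-4 they were 7.58 and 4.72 CPM, with library 6 (5.17) under library 8 (5.27).

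TMM scaling measures each library against a reference library, which was WT IL-4 library 2 with all 24 libraries. When any M0 or IL-4 library was left out, the shallow KO LPS library 7 became the reference, and the mean factor of the deep LPS libraries went from 0.752 to between 0.836 and 0.840 of that of the M0 libraries. With the deep libraries alone it was 0.740.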
